A study of Mus musculus with 18 samples.

Results

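The MHC class I presentation genes followed here are 10 genes, picked by name from the 55385 in the deposited table: the heavy chains H2-K1, H2-D1, H2-Q4, H2-Q7 and H2-T23, the light chain B2m, the peptide pump subunits Tap1 and Tap2, the loading factor Tapbp and the transactivator Nlrc5. All 10 were found and all 10 passed the filter on low counts, which kept 18634 genes. Poly(A) RNA was measured in 18 mouse spleen samples, 6 each of Dp16_2xIFNRs, Dp16 and WT, and each genotype had 3 male and 3 female samples. In Dp16 the mice carry an extra copy of a chromosome 16 interval that corresponds to a large part of the human chromosome triplicated in Down syndrome. Dp16_2xIFNRs is the same line with its interferon receptor genes set back to 2 copies, and WT mice are C57BL/6J. The labels name the strain for WT only and record no treatment. The labels give ages of 17.1 to 18.0 under a tag that reads days post conception; whether that unit is right could not be settled from the sources used here, so the stage is not named further.

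MHC class I molecules display short peptides from inside the cell to CD8 T cells and to natural killer cells. A heavy chain folds with the small invariant chain encoded by B2m, while the TAP transporter carries peptides made by the proteasome into the endoplasmic reticulum and tapasin, with calreticulin and ERp57, holds the empty complex open for loading. Interferon gamma and type I interferons are known to raise most of these genes, and NLRC5, itself an interferon target, is known to drive class I heavy chain promoters in lymphocytes.

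Library totals ran from 33998427 to 53021480 counts, and the 10 genes together took 0.858% to 1.07% of each. The rRNA-overlapping model Gm42418 took between 0.691% and 5.51%, with over 4% in Dp16_2xIFNRs replicate 5, Dp16 replicates 2 and 3 and WT replicate 4. All 4 receptor genes of the interval were called higher in Dp16 than in WT, with log2 fold changes of 0.30 to 0.68. Ifnar2, which encodes one chain of the receptor for type I interferons, averaged 93.7 ± 5.17 normalised CPM (counts relative to the TMM-scaled library total) in Dp16_2xIFNRs, 141 ± 7.70 in Dp16 and 88.0 ± 3.44 in WT (SD, n = 6 each). Ifngr2, a chain of the interferon gamma receptor, averaged 77.3 ± 8.59, 115 ± 10.6 and 93.0 ± 6.55 CPM in the same order, and was called lower in Dp16_2xIFNRs than in WT although both are labelled with 2 copies (log2 fold change -0.27, edgeR adjusted p = 0.0147; -0.20 and 0.0917 with the shared description code as a block). Ifnar1 was at -0.17 and Il10rb at -0.07 in Dp16_2xIFNRs against WT, not called. Marker lists moved with genotype, and so did many other genes. Against WT, 16.6% of all tested genes were called higher and 13.2% lower in Dp16, and 17.3% and 14.2% in Dp16_2xIFNRs. All 8 B cell markers were lower than WT in both Dp16_2xIFNRs and Dp16, with summed levels of 2505 to 3083 CPM, 2492 to 2938 CPM and 3471 to 4990 CPM in Dp16_2xIFNRs, Dp16 and WT. All 8 neutrophil markers were higher, with sums of 3317 to 5584, 2947 to 9736 and 394 to 1767 CPM in the same order, and so were all 8 erythroid markers, with sums of 17552 to 38681, 19608 to 37427 and 5488 to 17643 CPM. Of the other lists, 3 of 6 NK cell, 2 of 6 dendritic cell and 5 of 6 endothelial markers were called lower in each comparison with WT. The remaining endothelial marker, Vwf, was called higher in both (log2 fold change 0.78 in Dp16 and 0.85 in Dp16_2xIFNRs). Of 6 red pulp macrophage markers only Cd163 was called, higher in Dp16_2xIFNRs (0.65). Vwf and Cd163 were named after their values were seen. Of 8 T cell markers, 1 was called lower in Dp16 and 2 in Dp16_2xIFNRs. None of the markers of these lists was at 0 in a whole genotype. In bulk spleen RNA, fewer cells of a type and less RNA per cell cannot be told apart, and the part of cell composition in the values below was not tested.

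B2m was the most abundant of the 10 and Nlrc5 the least in all 3 genotypes. On the deposited RPKM scale, which divides by gene length, B2m averaged 3600 ± 341 in Dp16_2xIFNRs, 3678 ± 318 in Dp16 and 3302.5 ± 368 in WT (SD, n = 6 each). Nlrc5 averaged 9.55 ± 2.09, 10.1 ± 1.41 and 13.5 ± 1.44 RPKM in the same order. The classical heavy chains H2-K1 and H2-D1, which present peptides to most CD8 T cells, came next after B2m, at 1399 ± 120 and 1036 ± 58.8 RPKM in Dp16_2xIFNRs, 1422 ± 97.2 and 1049 ± 48.5 in Dp16, and 1520 ± 152 and 1058 ± 54.5 in WT. The nonclassical heavy chains followed, led by H2-T23 with 240.2 ± 19.8, 237.6 ± 17.2 and 251.7 ± 11.8 RPKM. After them stood Tapbp, Tap1 and Tap2, with means in WT of 146, 91.5 and 68.6 RPKM. The order was the same in Dp16_2xIFNRs and Dp16. In WT one step was different by the means: H2-Q4 (198 ± 28.6 RPKM) stood above H2-Q7 (190.2 ± 27.5), while H2-Q7 stood above H2-Q4 in Dp16_2xIFNRs (209 ± 20.3 against 161 ± 12.8) and in Dp16 (210.4 ± 15.3 against 163 ± 9.66). The WT libraries were split on this step. H2-Q7 was above H2-Q4 in WT replicates 2 (172 against 163 RPKM), 5 (194 against 181) and 6 (212 against 199). It was below H2-Q4 in WT replicates 1, 3 and 4. Neighbours in the order whose library ranges overlapped were H2-T23 and the gene after it in every genotype, and H2-Q4 and H2-Q7 in WT; the other neighbours did not overlap.

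**Figure D1:**
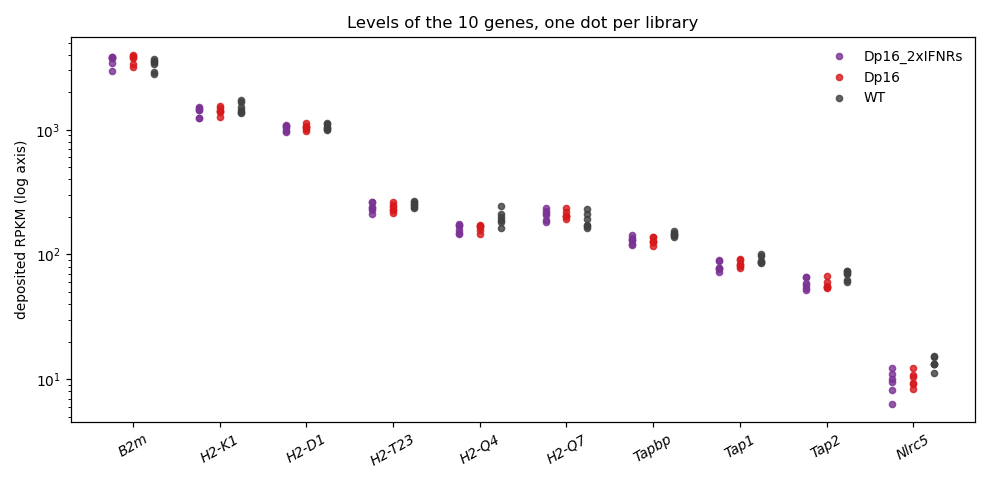
Deposited RPKM (log axis) of the 10 genes, one dot per library, with Dp16_2xIFNRs, Dp16 and WT from left to right for each gene and genes ordered by their WT mean. B2m lies above all others in each of the 18 libraries and Nlrc5 below all others. The means of H2-Q4 and H2-Q7 change places between WT and the other genotypes, but H2-Q7 also lies above H2-Q4 in WT replicates 2, 5 and 6.

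This order depends on the gene length behind the RPKM values. The authors' values imply 1536 bases for H2-Q7 and 1655 for H2-K1, against 4265 and 2938 bases in the union of their GENCODE vM21 exons. Per kilobase of the exon union, H2-D1 stood above H2-K1 (932 against 810.4 CPM per kilobase in Dp16_2xIFNRs, 943 against 823 in Dp16 and 878 against 811 in WT). H2-Q7 then fell below H2-Q4 in every genotype, with 77.4 against 114 in Dp16_2xIFNRs, 77.9 against 116 in Dp16 and 64.9 against 129.8 in WT. It also fell below Tapbp in every genotype, at 107, 106 and 111 CPM per kilobase for Tapbp in Dp16_2xIFNRs, Dp16 and WT. Tap2 stood above Tap1 in every genotype (55.1 against 44.5, 54.2 against 47.0 and 59.2 against 46.8, in the same order), and in WT H2-Q4 passed H2-T23 (129.8 against 122). Comparisons of one gene between genotypes are free of this choice.

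Of the members, 8 lie in the major histocompatibility complex on chromosome 17, B2m lies on chromosome 2 (chr2:122147686-122153083, plus strand) and Nlrc5 on chromosome 8 (chr8:94434356-94527272, plus strand; all GRCm38), so none is in the extra chromosome 16 interval. In order along chromosome 17 stand Tapbp (chr17:33915899-33929292, plus strand), H2-K1 (chr17:33996017-34000347, minus strand), Tap1 (chr17:34187553-34197225, plus strand), Tap2 (chr17:34203527-34216321, plus strand), H2-D1 (chr17:35262730-35267499, plus strand), H2-Q4 (chr17:35379617-35385290, plus strand), H2-Q7 (chr17:35439155-35443773, plus strand) and H2-T23 (chr17:36029773-36032855, minus strand). Some of these genes share bases with others. Antisense models cover 24.9% of the exonic bases of Tapbp (Gm19412) and 19.1% of those of H2-Q4 (Gm11131), the lncRNA model Gm15821 covers 14.1% of those of Tap2, and whether reads were counted by strand is not given in the sources used here, so reads of these pairs may not be separable. The protein-coding gene Zbtb22 covers 4.11% of the exonic bases of Tapbp on the same strand, where counting by strand would not separate reads. Among 150-base stretches of its transcripts, Tapbp shared 10.1% with Gm19412, H2-Q4 9.87% with Gm11131 and H2-Q7 5.9% with other genes, chiefly H2-Q10 and H2-Q6; H2-K1, B2m and Nlrc5 shared none. These are shares of sequence, not of reads, and the counts of H2-Q4 and H2-Q7 are uncertain by an amount that was not measured. H2-Q8 and H2-Q9 are absent from the deposited table, and how any reads from them were counted is not known.

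The stretches just upstream of the heavy chains and B2m are where interferon factors, NF-kappaB and the NLRC5-bound RFX complex are known to act, and they are shown for the genes whose values part ways below. Each is the 250 bases before the RefSeq start on GRCm38.p6, 5′ to 3′ on the gene's strand, for H2-K1 (chr17:34000348-34000597, minus), H2-D1 (chr17:35262844-35263093, plus), H2-Q7 (chr17:35438905-35439154, plus), H2-Q4 (chr17:35379367-35379616, plus) and B2m (chr2:122147437-122147686, plus). Capitals mark exact matches on either strand to GAANNGAAA or GAAANNGAA (interferon response element-like), GGGATTCCC (NF-kappaB-like), TGACGC (CRE-like) and CCAAT. H2-K1 has a further RefSeq start nearby that is not shown.
H2-K1 promoter: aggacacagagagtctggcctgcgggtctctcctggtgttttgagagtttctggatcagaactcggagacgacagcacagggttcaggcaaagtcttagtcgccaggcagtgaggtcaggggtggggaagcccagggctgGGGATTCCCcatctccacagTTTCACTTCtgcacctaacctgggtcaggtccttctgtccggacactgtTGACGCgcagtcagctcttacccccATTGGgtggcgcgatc
H2-D1 promoter: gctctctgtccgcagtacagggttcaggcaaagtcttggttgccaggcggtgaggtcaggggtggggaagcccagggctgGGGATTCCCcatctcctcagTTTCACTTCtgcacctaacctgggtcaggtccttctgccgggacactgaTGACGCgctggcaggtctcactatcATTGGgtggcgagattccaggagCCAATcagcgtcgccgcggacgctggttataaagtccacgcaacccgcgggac
H2-Q7 promoter: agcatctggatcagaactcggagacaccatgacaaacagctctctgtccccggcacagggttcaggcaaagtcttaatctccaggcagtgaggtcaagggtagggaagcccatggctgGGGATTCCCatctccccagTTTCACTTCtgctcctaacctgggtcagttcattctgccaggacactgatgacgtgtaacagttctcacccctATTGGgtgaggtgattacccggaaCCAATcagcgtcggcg
H2-Q4 promoter: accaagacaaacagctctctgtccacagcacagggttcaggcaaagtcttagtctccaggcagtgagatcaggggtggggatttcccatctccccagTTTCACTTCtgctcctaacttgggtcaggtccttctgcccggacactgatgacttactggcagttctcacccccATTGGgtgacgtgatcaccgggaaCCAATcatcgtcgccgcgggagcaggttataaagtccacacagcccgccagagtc
B2m promoter: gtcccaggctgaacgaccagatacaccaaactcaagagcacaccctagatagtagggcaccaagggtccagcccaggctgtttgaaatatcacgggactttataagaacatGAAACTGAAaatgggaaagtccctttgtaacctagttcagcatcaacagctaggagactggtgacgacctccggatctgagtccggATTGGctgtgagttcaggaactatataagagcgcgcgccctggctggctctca
H2-K1, H2-D1, H2-Q7 and H2-Q4 each held GAANNGAAA, which was present in 6.31% of the 32851 promoter stretches of the same length, and B2m held GAAANNGAA, present in 7.13%. GGGATTCCC, present in 0.301%, was matched in H2-K1, H2-D1 and H2-Q7 and not in H2-Q4. Just before the atctccccag that H2-Q7 also has, H2-Q4 reads gggatttccc, which an exact search for GGGATTCCC does not count. TGACGC (6.12%) was matched in H2-K1 and H2-D1, and CCAAT (33.8%) in all of those shown. H2-Q7 and H2-Q4 hold tgacgt and B2m holds tgacga, which differ from TGACGC in the last base and were not searched. In H2-Q7 tgacgt follows cactga, as TGACGC does in H2-D1. H2-Q4 reads tgactt after cactga and has its tgacgt elsewhere, near ATTGG. Of the other members with an entry, H2-T23 held GAAANNGAA and CCAAT, and Tap1 and Tapbp held CCAAT alone. A match is a description of letters, not of binding.

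Set against WT, Dp16 addresses the effect of the extra interval and Dp16_2xIFNRs that of the interval with receptor copies normal, while Dp16_2xIFNRs against Dp16 addresses the receptor copies. The labels name the strain for WT only, so a difference in strain background cannot be told apart from these effects. All comparisons came from one edgeR quasi-likelihood fit of genotype and sex with Benjamini-Hochberg adjustment over all 18634 genes. A gene was called at an adjusted p below 0.05. In Dp16 against WT, 2 of the 10 genes were called higher (B2m and H2-Q7) and 1 lower (Nlrc5), while 16.6% of all tested genes were called higher and 13.2% lower (29.8% in all). In Dp16_2xIFNRs against WT the same 3 genes were called in the same directions, beside 17.3% higher and 14.2% lower (31.4% in all) of all tested genes. In Dp16_2xIFNRs against Dp16 none of the 10 was called, and 0.0215% of all tested genes were, all lower. The members' median log2 fold changes in these comparisons were 0.01, -0.03 and -0.02, against -0.01, -0.01 and 0.00 for all tested genes. The members' share of calls against WT was close to that of all genes. No member had library ranges that failed to overlap in any comparison (0 of 10 each), against 12.8%, 12.6% and 0.0859% of all tested genes in Dp16 against WT, Dp16_2xIFNRs against WT and Dp16_2xIFNRs against Dp16. Both comparisons with WT use the same WT libraries. Some samples of different genotypes share a number in their description codes, whose meaning the labels do not give. With that number as a block in place of sex, fewer genes were called in all, 1692 higher and 835 lower in Dp16 against WT and 2663 and 1917 in Dp16_2xIFNRs against WT. In that fit a library whose number no other sample shares adds nothing to the genotype values. These are WT replicates 1, 2 and 5, Dp16 replicates 4 to 6 and Dp16_2xIFNRs replicate 1. WT and Dp16 share a number directly only in WT replicate 4 and Dp16 replicate 2, and otherwise are linked through Dp16_2xIFNRs.

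**Figure D2:**
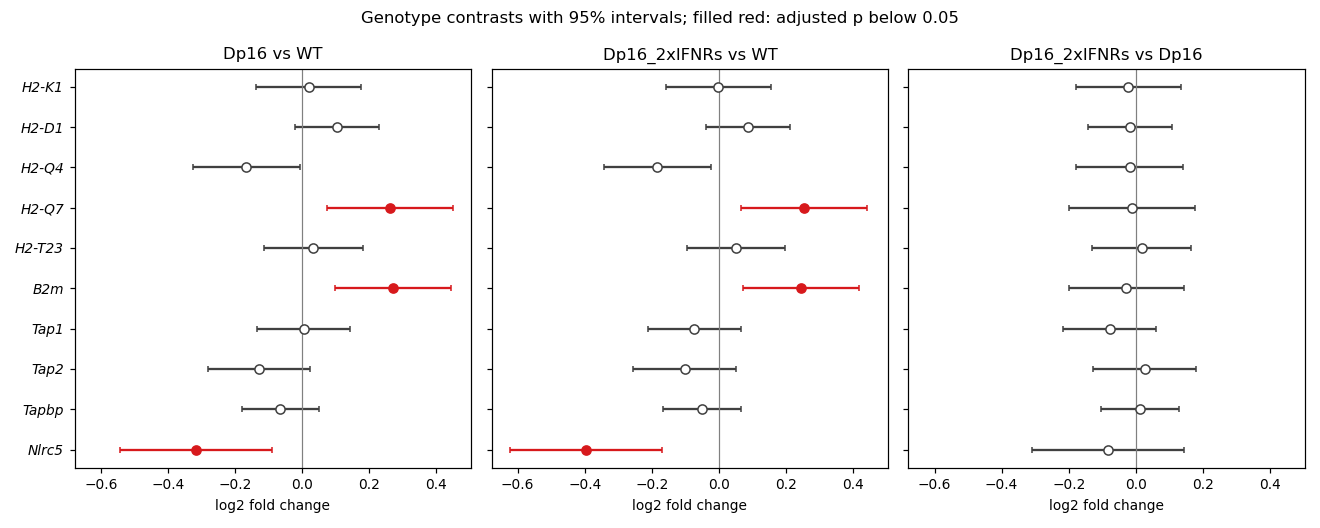
Log2 fold changes (x axis) of the 10 genes from the edgeR fit, with 95% intervals, in one panel per comparison; filled red points have an adjusted p below 0.05. B2m and H2-Q7 lie above 0 and Nlrc5 below 0 in both comparisons with WT, and in the comparison of Dp16_2xIFNRs with Dp16 every interval spans 0.

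B2m encodes beta-2 microglobulin, the light chain that every class I heavy chain needs to reach the cell surface. Its lowest, median and highest normalised levels were 2541, 3260.0 and 3545 CPM in Dp16_2xIFNRs, 2842, 3285 and 3488 CPM in Dp16, and 2315, 2819 and 2998 CPM in WT. In both Dp16_2xIFNRs and Dp16, 5 of 6 libraries lay above every WT library, and the ranges overlapped through the lowest library. B2m was 1.21-fold higher in Dp16 than in WT (log2 fold change 0.27 ± 0.083 SE, edgeR adjusted p = 0.0163) and 1.18-fold higher in Dp16_2xIFNRs than in WT (0.24 ± 0.083, adjusted p = 0.0285). The call in Dp16 was lost without WT replicate 4 (0.24, adjusted p = 0.0514), with upper quartile scaling (0.21, adjusted p = 0.0650) and with the description code block (0.31, adjusted p = 0.0702). The call in Dp16_2xIFNRs was lost without any one of Dp16_2xIFNRs replicates 3, 4 and 5 or WT replicates 1 and 4 (0.20 to 0.23, adjusted p from 0.0640 to 0.0831) and with upper quartile scaling (0.18, adjusted p = 0.105).

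The classical heavy chain genes were not called in either comparison with WT. H2-K1 had lowest, median and highest levels of 2044, 2469.8 and 2576 CPM in Dp16_2xIFNRs, 2262, 2388 and 2685 CPM in Dp16, and 2210.2, 2278 and 2736 CPM in WT. Its log2 fold change was 0.02 ± 0.075 SE in Dp16 against WT (adjusted p = 0.880) and -0.00 ± 0.075 in Dp16_2xIFNRs against WT (adjusted p = 0.989), with 95% intervals of the fold of 0.910 to 1.13 and 0.896 to 1.11. H2-D1 had 2136, 2407 and 2678 CPM in Dp16_2xIFNRs, 2358, 2415 and 2529 CPM in Dp16, and 2180.3, 2208 and 2442.0 CPM in WT. All 3 genotypes overlapped for both genes. For H2-D1 the log2 fold change was 0.10 ± 0.060 in Dp16 (adjusted p = 0.217) and 0.09 ± 0.060 in Dp16_2xIFNRs (adjusted p = 0.310), with intervals of the fold of 0.985 to 1.17 and 0.973 to 1.16.

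**Figure D3:**
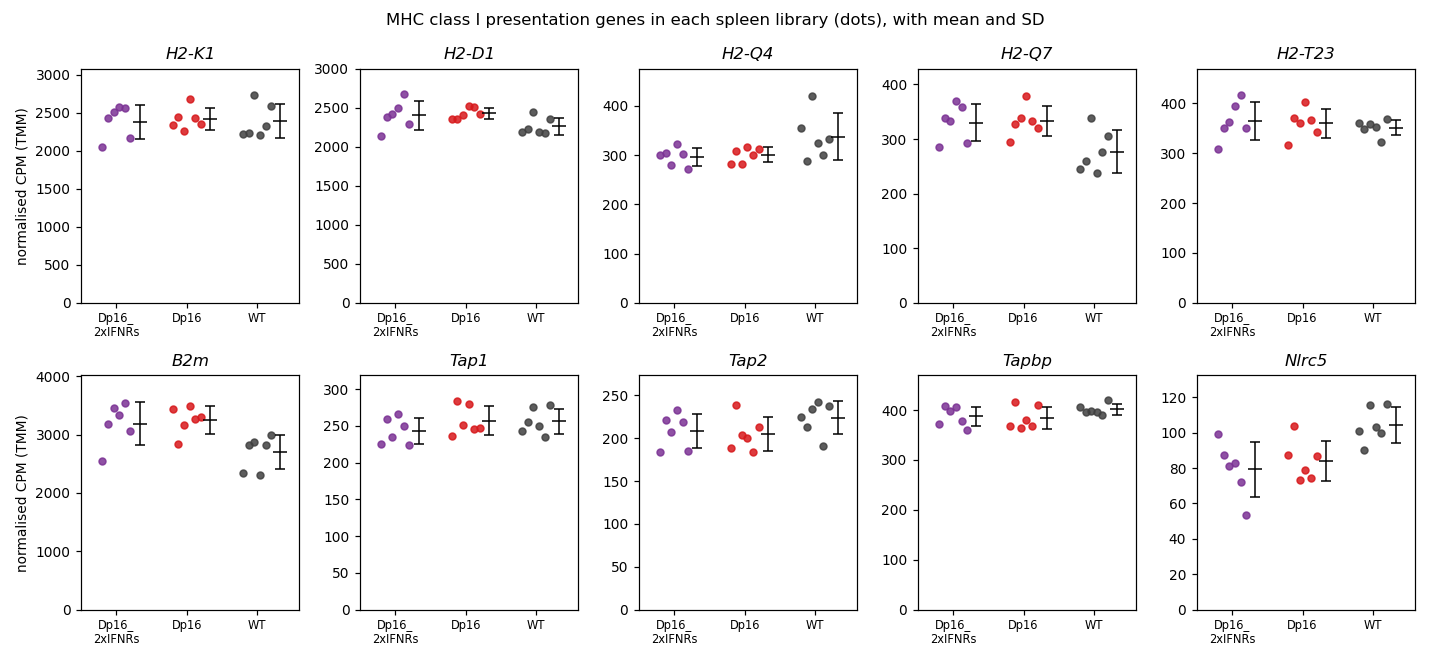
Normalised CPM (TMM scaling, y axes from 0) of the 10 genes in each library, with Dp16_2xIFNRs, Dp16 and WT from left to right; the bar beside each group is its mean with SD (n = 6). B2m is above every WT library in 5 of 6 libraries of Dp16_2xIFNRs and of Dp16, Nlrc5 is below every WT library in 5 of 6, and no gene separates Dp16_2xIFNRs from Dp16.

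The nonclassical heavy chains had changes of both signs. H2-Q7, which encodes the Qa-2 antigen, had lowest, median and highest levels of 286, 336 and 370.0 CPM in Dp16_2xIFNRs, 296, 330.3 and 379 CPM in Dp16, and 238, 268 and 339 CPM in WT. The highest WT library reached into the range of the others, above which lay 2 Dp16_2xIFNRs libraries and 1 Dp16 library. H2-Q7 was 1.20-fold higher in Dp16 than in WT (log2 fold change 0.26 ± 0.091 SE, edgeR adjusted p = 0.0317) and 1.19-fold higher in Dp16_2xIFNRs than in WT (0.25 ± 0.090, adjusted p = 0.0372). The Dp16 call was lost without any one of Dp16 replicates 3, 4 and 5 or WT replicates 1, 2, 4 and 5 (0.22 to 0.26, adjusted p from 0.0522 to 0.0919). The Dp16_2xIFNRs call was lost without any one of Dp16_2xIFNRs replicates 2, 3, 4 and 5 or WT replicates 1, 2, 4 and 5 (0.21 to 0.25, adjusted p from 0.0596 to 0.106), and upper quartile scaling ended both (adjusted p = 0.102 and 0.117), as did the description code block (0.28 in both, adjusted p = 0.264 and 0.108). Upper quartile scaling moved the median of all genes to -0.08 in Dp16 and -0.07 in Dp16_2xIFNRs, and relative to it B2m was at 0.28 and 0.25 and H2-Q7 at 0.28 and 0.26. The deposited RPKM scale ended the B2m and H2-Q7 calls in both comparisons (log2 fold changes of 0.13 to 0.16, limma adjusted p from 0.138 to 0.242 with 0.1 added). Without the 4 libraries rich in Gm42418, only B2m in Dp16 kept its call among these.

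H2-Q4, a neighbouring gene of the Q region, had the opposite sign. Its levels were 272, 302 and 323 CPM in Dp16_2xIFNRs, 283, 304 and 317 CPM in Dp16, and 287, 329.5 and 421 CPM in WT, with 2 libraries of each of Dp16_2xIFNRs and Dp16 below every WT library. The log2 fold change was -0.17 ± 0.077 SE in Dp16 (adjusted p = 0.112) and -0.18 ± 0.077 in Dp16_2xIFNRs (adjusted p = 0.0742), so H2-Q4 was not called in the edgeR fit. Without WT replicate 3 it was at -0.08 in Dp16 (adjusted p = 0.386) and -0.09 in Dp16_2xIFNRs (adjusted p = 0.262). Omitting WT replicate 2 put it at -0.20 in Dp16 and at -0.22 in Dp16_2xIFNRs (adjusted p = 0.0534 and 0.0340). Upper quartile scaling brought it past the threshold in both (adjusted p = 0.0281 and 0.0180), but relative to the shifted median of all genes it stood at -0.15 and -0.18 under both scalings. H2-T23, which encodes Qa-1, the ligand of the CD94/NKG2A receptor, had 308, 357 and 417 CPM in Dp16_2xIFNRs, 317, 363 and 403 CPM in Dp16, and 322, 355 and 368 CPM in WT. It was not called, with log2 fold changes of 0.03 ± 0.071 in Dp16 (adjusted p = 0.775) and 0.05 ± 0.071 in Dp16_2xIFNRs (adjusted p = 0.649).

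The ratio of H2-Q7 to H2-Q4 counts within a library needs no scaling between libraries. It was 0.952, 1.11, 1.19, 1.15, 1.19 and 1.08 in Dp16_2xIFNRs replicates 1 to 6, 1.05, 1.06, 1.20, 1.20, 1.11 and 1.03 in Dp16, and 0.688, 0.903, 0.806, 0.731, 0.921 and 0.915 in WT. Every Dp16_2xIFNRs and Dp16 library lay above every WT library, the closest being Dp16_2xIFNRs replicate 1 and WT replicate 5. Dp16_2xIFNRs and Dp16 averaged 1.11 ± 0.0896 and 1.11 ± 0.0751, and WT 0.828 ± 0.101 (SD, n = 6 each). The ratio of B2m to the sum of H2-K1 and H2-D1 averaged 0.665 ± 0.0321, 0.670 ± 0.0459 and 0.579 ± 0.0481 in Dp16_2xIFNRs, Dp16 and WT, with ranges that overlapped. These ratios were chosen with the values of their genes known and are given as descriptions, without a test. H2-Q7 and H2-Q4 were paired with their opposite signs known, which favours separation. How often the ratios of other gene pairs separate in this way was not counted.

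**Figure D4:**
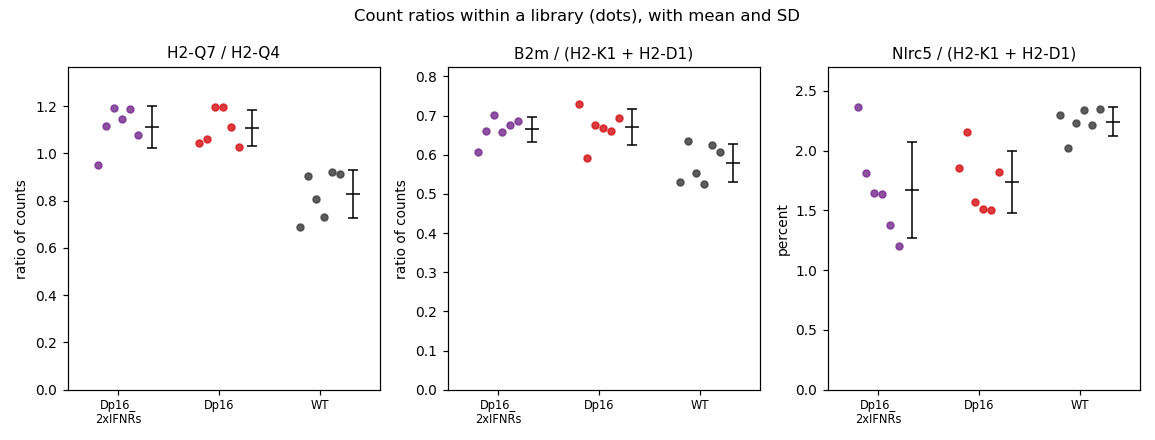
Ratios of counts within each library, with y axes from 0: H2-Q7 to H2-Q4, B2m to the sum of H2-K1 and H2-D1, and Nlrc5 as a percentage of that sum; bars are means with SD (n = 6). The H2-Q7 to H2-Q4 ratio of all 12 Dp16_2xIFNRs and Dp16 libraries lies above the highest WT value of 0.921, while the other ratios overlap between genotypes. The ratios were chosen with the values of their genes known, and how often other gene pairs separate was not counted.

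The peptide transport and loading members were not called in any comparison. Tap1 and Tap2 form the pump that brings peptides into the endoplasmic reticulum. Tap1 had lowest, median and highest levels of 224, 242 and 266 CPM in Dp16_2xIFNRs, 236, 249 and 284 CPM in Dp16, and 235, 252 and 278 CPM in WT, and Tap2 had 184, 213 and 233 CPM, 184, 202 and 239 CPM, and 191, 229.7 and 243 CPM. In Dp16 against WT the log2 fold change was 0.00 ± 0.067 SE for Tap1 (adjusted p = 0.969) and -0.13 ± 0.074 for Tap2 (adjusted p = 0.210). In Dp16_2xIFNRs against WT it was -0.07 ± 0.067 for Tap1 (adjusted p = 0.457) and -0.10 ± 0.074 for Tap2 (adjusted p = 0.328). Tapbp encodes tapasin, which bridges the pump and the empty class I molecule. Tapbp had 360.1, 388 and 408 CPM in Dp16_2xIFNRs, 364, 374 and 415 CPM in Dp16, and 391, 397 and 419 CPM in WT, with log2 fold changes of -0.06 ± 0.056 in Dp16 (adjusted p = 0.435) and -0.05 ± 0.056 in Dp16_2xIFNRs (adjusted p = 0.549). On the deposited RPKM scale, which has no correction for composition and moves the median of all genes to -0.13 in Dp16 and -0.12 in Dp16_2xIFNRs, limma called Tap2 and Tapbp lower in both and Tap1 lower in Dp16_2xIFNRs (adjusted p from 0.0133 to 0.0313 with 0.1 added). Relative to that median, Tap2 was at -0.12 and -0.10 in Dp16 and Dp16_2xIFNRs, Tapbp at -0.05 in both, and Tap1 at 0.02 and -0.07.

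Nlrc5 was the member that fell against WT in both lines. NLRC5 is a nucleotide-binding domain protein that acts in the nucleus on class I heavy chain, B2m and Tap1 promoters. Its lowest, median and highest levels were 53.4, 82.0 and 99.0 CPM in Dp16_2xIFNRs, 73.2, 82.8 and 104 CPM in Dp16, and 89.9, 102 and 116 CPM in WT. In both Dp16_2xIFNRs and Dp16, 5 of 6 libraries lay below every WT library. Nlrc5 was 0.804 of WT in Dp16 (log2 fold change -0.31 ± 0.11 SE, edgeR adjusted p = 0.0329) and 0.759 of WT in Dp16_2xIFNRs (-0.40 ± 0.11, adjusted p = 0.00786). The Dp16_2xIFNRs call held under all 33 alternatives, with log2 fold changes of -0.52 to -0.31. The Dp16 call was lost without any one of Dp16 replicates 3, 4, 5 and 6 or WT replicates 3, 5 and 6 (-0.31 to -0.26, adjusted p from 0.0551 to 0.0911). With the description code block Nlrc5 was at -0.18 in Dp16 (adjusted p = 0.448) and was still called lower in Dp16_2xIFNRs. The B cell marker sums given above were lower in the same genotypes, and their part in the Nlrc5 values was not tested. As a percentage of H2-K1 and H2-D1 counts, Nlrc5 stood at 1.67 ± 0.405 in Dp16_2xIFNRs, 1.74 ± 0.258 in Dp16 and 2.24 ± 0.122 in WT (SD, n = 6 each), with overlapping ranges.

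Between Dp16_2xIFNRs and Dp16 the 10 genes differed by little, and the intervals bound how much. The log2 fold changes ran from -0.08 (Nlrc5 and Tap1) to 0.03 (Tap2), each with an edgeR adjusted p of 1, and none had an unadjusted p below 0.05, the smallest being 0.256 for Tap1. The 95% interval of the fold was widest for Nlrc5, at 0.807 to 1.11. It was 0.870 to 1.11 for B2m, 0.872 to 1.13 for H2-Q7, 0.884 to 1.10 for H2-K1 and H2-Q4, 0.906 to 1.08 for H2-D1 and 0.914 to 1.12 for H2-T23. For the loading members it was 0.860 to 1.04 for Tap1, 0.916 to 1.13 for Tap2 and 0.931 to 1.09 for Tapbp. With the description code block Nlrc5 moved to -0.30 (adjusted p = 0.908). The 4 genes called in this comparison were the receptors themselves, Ifnar2 (log2 fold change -0.59, edgeR adjusted p = 3.7e-05), Il10rb (-0.54, adjusted p = 0.00050), Ifngr2 (-0.57, adjusted p = 0.00339) and Ifnar1 (-0.46, adjusted p = 0.0278). The Ifnar1 call was lost under 16 of 33 alternatives, with log2 fold changes of -0.51 to -0.43 throughout; these include omission of any one of Dp16_2xIFNRs replicates 3 to 6, Dp16 replicates 1, 2, 4, 5 and 6 or WT replicate 5. With the description code block none of the 4 was called, at -0.51 for Ifnar2, -0.52 for Il10rb, -0.57 for Ifngr2 and -0.43 for Ifnar1 (adjusted p from 0.251 to 0.687).

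Sex made no called difference to the 10 genes. Males had Tap2 at 221 CPM and females at 203 CPM on average, the smallest p of the sex term among the 10 (log2 difference 0.12 ± 0.060 SE, edgeR adjusted p = 0.576, 0.258% of all genes called). None of 30 edgeR interaction tests of sex with genotype called a member (lowest adjusted p = 1.00, 0 with an unadjusted p below 0.05), and these tests called 0% of all 18634 genes in each comparison, so nothing is read from them about the members. H2-Q7 had the widest such gap, with a log2 fold change in Dp16 against WT of 0.38 in males and 0.15 in females (unadjusted p = 0.206).

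Other genes of the pathway were read from fixed lists, each given with its calls in Dp16 and in Dp16_2xIFNRs against WT. The counts of this list and of those below stand beside the shares of all tested genes. These were 16.6% called higher and 13.2% lower in Dp16, and 17.3% and 14.2% in Dp16_2xIFNRs. Of 12 peptide supply and loading genes, Dp16 had 4 higher and 1 lower, and Dp16_2xIFNRs likewise 4 and 1, with list medians of 0.15 and 0.16. Psme3, the nuclear proteasome activator subunit, rose by 0.70 ± 0.11 SE in Dp16 (log2, edgeR adjusted p = 0.00010) and 0.72 in Dp16_2xIFNRs. Calreticulin (Calr) rose by 0.31 and 0.34 and Pdia3, which encodes ERp57, by 0.24 and 0.27, while the trimming peptidase gene Lnpep was at -0.28 and -0.32, called lower in both. The remaining higher call was Canx in Dp16 (0.19, edgeR adjusted p = 0.0426) and Psme2 in Dp16_2xIFNRs (0.25, adjusted p = 0.0250), both named after their values were seen. Across the alternatives the higher calls in this list ranged from 1 to 6 in Dp16 and from 1 to 7 in Dp16_2xIFNRs. The immunoproteasome genes Psmb8, Psmb9 and Psmb10, named after their values were seen, were not called (0.03, 0.15 and -0.00 in Dp16, and 0.13, 0.17 and 0.08 in Dp16_2xIFNRs). Leaving out 1 library ended the Pdia3 call in Dp16 for 9 libraries (Dp16_2xIFNRs replicate 4, Dp16 replicates 3 to 6 and WT replicates 1, 3, 4 and 5; 0.19 to 0.26, adjusted p from 0.0508 to 0.120) and the Lnpep call in Dp16 for 3 (Dp16 replicates 4, 5 and 6; -0.25 to -0.23, adjusted p from 0.0594 to 0.0611). In Dp16_2xIFNRs the Pdia3 call ended for 5 (Dp16_2xIFNRs replicates 3, 4 and 5 and WT replicates 1 and 4; 0.22 to 0.25, adjusted p from 0.0521 to 0.0747). With the description code block the Dp16 values of Lnpep, Calr and Pdia3 were -0.04, 0.22 and 0.25 and none was called (adjusted p = 0.867, 0.303 and 0.213), while Psme3 was at 0.72 (adjusted p = 0.00401).

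Of 23 other class I and class I-like chains, 16 were tested. Dp16 had 1 higher and 3 lower and Dp16_2xIFNRs 0 higher and 1 lower, with medians of -0.23 and -0.13. Cd1d1, which presents lipids to NKT cells, was at -0.60 in Dp16 and -0.55 in Dp16_2xIFNRs (edgeR adjusted p = 0.00046 and 0.00083), called under all 33 alternatives in both. In Dp16 H2-T10 (-0.28) and H2-Q5 (-0.39) were called lower and H2-T24 (0.30) higher, and in Dp16_2xIFNRs none of these was called (-0.20, -0.30 and 0.25). Those Dp16 calls had adjusted p of 0.0325 to 0.0366 and were lost without any one of 7 libraries for H2-T10 (Dp16 replicates 1, 2, 3 and 6 and WT replicates 1, 3 and 5), 6 for H2-Q5 (Dp16 replicates 1, 3 and 6 and WT replicates 1, 3 and 5) and 9 for H2-T24 (Dp16 replicates 1, 3, 4, 5 and 6 and WT replicates 3, 4, 5 and 6), with adjusted p from 0.0501 to 0.120. The values without 1 of these libraries were -0.29 to -0.20 for H2-T10 and 0.26 to 0.30 for H2-T24. For H2-Q5 they were -0.38 to -0.35 except without WT replicate 3, where H2-Q5 was at -0.24. With the description code block the Dp16 values were -0.36, -0.35 and 0.22 for H2-T10, H2-Q5 and H2-T24, none called (adjusted p = 0.193, 0.534 and 0.366). In Dp16_2xIFNRs H2-T24 depended on single libraries in both directions, at 0.14 without Dp16_2xIFNRs replicate 1 (adjusted p = 0.233), 0.33 without Dp16_2xIFNRs replicate 3 (adjusted p = 0.0133) and 0.29 when WT replicate 2 was omitted (adjusted p = 0.0471). The Q and T genes are close relatives, so reads may be split between them.

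**Figure D5:**
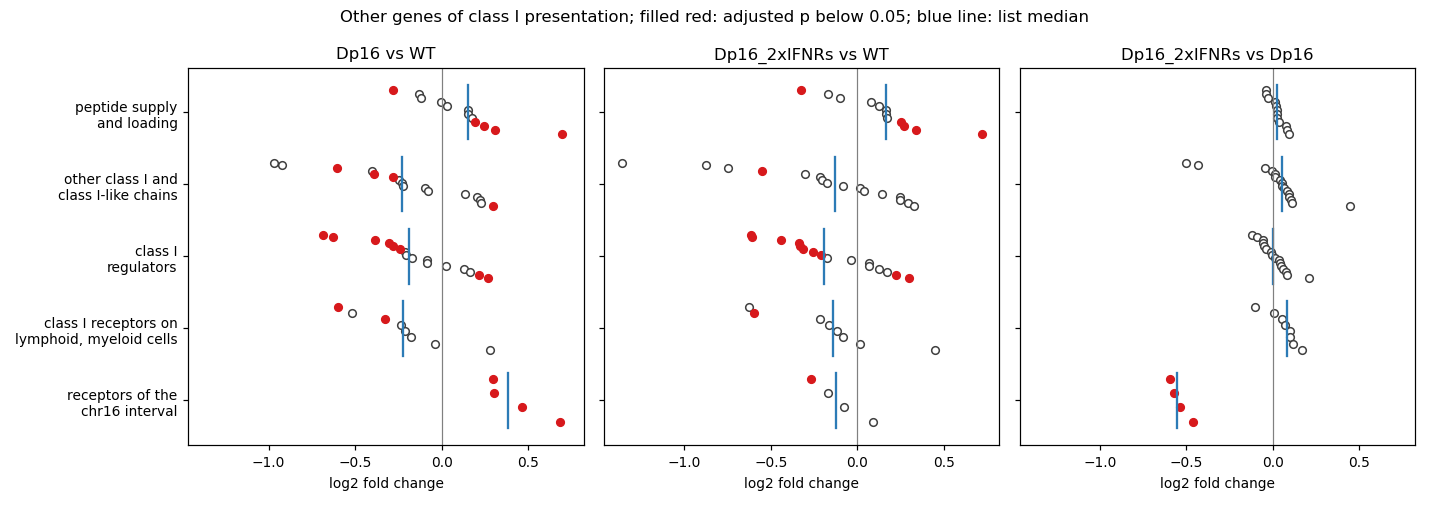
Log2 fold changes (x axis) of the genes on the pathway lists in the 3 comparisons; each point is a gene, filled red where the edgeR adjusted p is below 0.05, and blue lines are list medians. Outside the receptors of the chromosome 16 interval, no listed gene is called between Dp16_2xIFNRs and Dp16.

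Among 16 regulators of class I promoters, Dp16 had 2 higher and 6 lower and Dp16_2xIFNRs 2 and 8, with medians of -0.19 in both. Rfx5, the RFX subunit that binds class I and class II promoters, was at -0.68 and -0.61 in Dp16 and Dp16_2xIFNRs (edgeR adjusted p = 4.8e-05 and 0.00012), and Ciita, the class II transactivator and relative of Nlrc5, at -0.63 and -0.62 (adjusted p = 4.5e-05 and 5.0e-05). Nfkb1 was at -0.38 and -0.44, and Stat2, of the type I interferon pathway, at -0.28 and -0.33, all called lower. The higher calls were Rfxap (0.27) and Nfyb (0.22) in Dp16 and Nfyb (0.30) and Nfyc (0.22) in Dp16_2xIFNRs, named after their values were seen. The number of higher calls in this list changed under 15 of 33 alternatives in Dp16 and 18 of 33 in Dp16_2xIFNRs, ranging from 0 to 2 in both. Irf1, named after its values were seen, was not called (-0.21 in Dp16 and -0.18 in Dp16_2xIFNRs). The Stat2 call in Dp16 was lost without any one of Dp16 replicates 3 and 6 or WT replicates 3 and 5 (-0.27 to -0.23, adjusted p from 0.0535 to 0.0724) and with the description code block (-0.34, adjusted p = 0.146). B cell marker sums were lower in the same genotypes, and their part in these values was not tested.

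For 8 class I receptors, Dp16 had 0 higher and 2 lower and Dp16_2xIFNRs 0 and 1, with medians of -0.22 and -0.14. Cd8a, a chain of the CD8 coreceptor that binds the heavy chain, was at -0.60 and -0.59 in Dp16 and Dp16_2xIFNRs (edgeR adjusted p = 9.9e-05 and 0.00010). Cd8b1 was at -0.33 in Dp16, called lower, and at -0.21 in Dp16_2xIFNRs, not called (adjusted p = 0.0151 and 0.112); in Dp16_2xIFNRs it was at -0.27 without Dp16_2xIFNRs replicate 3 (adjusted p = 0.0430) and at -0.12 without Dp16_2xIFNRs replicate 1 (adjusted p = 0.257). With the description code block Cd8b1 was at -0.25 in Dp16 (adjusted p = 0.240). Klrc2 (-0.52 and -0.62) and Cd160 (-0.21 and -0.11) were not called. The 8 T cell markers, which include Cd8a, had summed levels of 895 to 1243, 1039 to 1263 and 973 to 1261 CPM in Dp16_2xIFNRs, Dp16 and WT. Those of the 6 NK cell markers were 89.4 to 114, 82.7 to 126 and 116 to 128 CPM, those of the 6 dendritic cell markers 187 to 266, 181 to 258 and 227 to 280.5 CPM, and those of the 6 endothelial markers 370 to 485, 386 to 473 and 465.9 to 630 CPM in the same order. Their part in the receptor values was not tested.

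The genes whose pattern over the 18 libraries was closest to each member were taken by the mean absolute difference of standardised log2 CPM, in SD units, which was about 1.1 for a typical gene. Nearest to B2m was Pdia3, which encodes ERp57, at 0.262, followed by Psat1 at 0.318 and Edf1 at 0.326. Nearest to Nlrc5 were Myo9b at 0.277, Parp14 at 0.278 and Kbtbd11 at 0.279. H2-Q7 was closest to H2-T22 at 0.315, while H2-Q4 was closest to H2-Q6 at 0.346, so the neighbouring Q genes had different partners. H2-D1 was closest to the immunoproteasome gene Psmb9 at 0.330, H2-K1 to Ifi30, which encodes a lysosomal thiol reductase, at 0.359, and H2-T23 to Tnfaip8l2 at 0.277 and the immunoproteasome gene Psmb8 at 0.309. Tap2 was closest to Rhoh (0.295), Tapbp to Itgax (0.414) and Tap1 to Rarres1 (0.446). Among the 45 pairs of members, H2-D1 and H2-Q7 were the most alike at 0.402 and B2m and Nlrc5 the least at 1.56. All these points share libraries, depth and the genotype differences, and they are given as descriptions.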

How the data were processed

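Spleen poly(A) RNA of 18 samples was extracted in TRIzol and sequenced as strand-specific paired-end libraries, per the labels' protocols. Per the submitters' processing notes, the tools were HISAT2 2.1.0, HTSeq 0.6.1 and SAMtools 1.5 on GRCm38, listed with no order; the counting's strand option is not given in the sources used here. The deposited counts are the authors' raw whole-number read counts per gene. The deposited RPKM values equal the authors' count divided by library total and 1 gene length per gene (11538 genes with at least 100 counts, largest relative deviation 6.7e-16).

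Counts were filtered with filterByExpr by genotype, scaled by TMM and fitted with edgeR 4.0.16 (quasi-likelihood, robust, R 4.3.3) on genotype and sex over all 18 libraries, with p adjusted by Benjamini-Hochberg over 18634 genes; a further fit held sex by genotype terms. Intervals are 95%. In a test on simulated counts, the fit of Dp16 against WT recovered 16 of 100 genes changed 1.25-fold and 85 of 100 changed 1.5-fold. It made 5 false calls. Far fewer genes were changed there than were called in these data, so these rates may not carry over. A count of 0 allows up to 3 counts, 0.0566 to 0.0882 CPM; this floor covers counting error only. The lowest member count was 2172. Pairs within a genotype gave chi-square values per degree of freedom from 35.1 to 200.4, so none was a copy; the labels number the samples and do not state separate animals, so p-values measure the spread between these samples. Alternatives were RLE, upper quartile scaling, DESeq2 1.42.0, limma 3.58.1 (voom with quality weights, and trend on log2 of RPKM plus 0.1 or 1), no filter, 1 CPM in 6 libraries, an adjusted p below 0.1, other terms or blocks, omission of genes or libraries, and fits on the 12 libraries compared. Members and lists were chosen with earlier results of these data known. The text names all members, the 4 genes of each list with the smallest p in Dp16 against WT, the receptors and the 3 nearest genes of a member; other names are marked. Positions are from GENCODE vM21 (GRCm38) and promoters from RefSeq (GRCm38.p6; 8 of 10 members had an entry).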

Additional observations from a re-analysis of the deposited data

How the results depend on the processing

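Across 33 alternatives per value, no called member changed sign. B2m and H2-Q7 kept a positive log2 fold change against WT in all of them and Nlrc5 a negative one, while the calls depended on the setting, and the cause was not tested. Without 1 library, the members called higher ranged from 0 to 2 in Dp16 vs WT and from 0 to 2 in Dp16_2xIFNRs vs WT, and those called lower from 0 to 1 and from 1 to 2. In Dp16 vs WT, upper quartile scaling gave 0 higher and 2 lower (H2-Q4 added), RPKM with 0.1 or 1 added 0 higher and 4 lower, no filter 1 higher, a block for the description code 0 higher and 0 lower, and omission of the 4 libraries rich in Gm42418 1 higher and 0 lower. Over all genes these last settings gave 1692 higher and 835 lower of 18634, and 2493 and 1683 of 18976, so calls fell there too. In Dp16_2xIFNRs vs WT these gave 0 higher and 2 lower, 0 higher and 5 lower, 0 higher, 1 higher, and 0 higher; an adjusted p below 0.1, and omission of immunoglobulin and haemoglobin genes, gave 2 lower. Relative to the median of all genes on the RPKM scale (0.1 added), B2m was at 0.29 in Dp16 and 0.24 in Dp16_2xIFNRs. Over all genes, the split of calls in Dp16 vs WT was 3091 higher to 2462 lower with TMM, 2558 to 3333 with upper quartile scaling and 2220 to 3924 on RPKM.

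Sample numbers were not shown to pair animals: the mean correlation of deviations was 0.02 for 18 pairs with the same number, with 4 over 0.1. For 90 pairs with different numbers it was -0.004, with 12 over 0.1. Pairs with the same description code averaged 0.05 (7 pairs, 2 over 0.1), and pairs with different codes -0.004 (101 pairs, 14 over 0.1). A replicate block left the members' calls at 2 higher and 1 lower in both comparisons with WT and moved the call of 1 named list gene, H2-Q5 (adjusted p = 0.0501). Under the description-code block, which has fewer libraries left to estimate the spread, 0 genes were called between Dp16_2xIFNRs and Dp16, with the 4 receptors at -0.57 to -0.43. Each member had at least 2172 counts in every library; no setting varied depth.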
